A study of Sus scrofa with 20 samples.

Results

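The enzymes that carry glucose carbon through glycolysis, the pyruvate dehydrogenase complex and the citrate cycle were followed in pig hearts exposed to 3 ischemia protocols. The members were taken by gene symbol from the platform's probe table: hexokinases, phosphoglucose isomerase, phosphofructokinases, the enzymes from aldolase to pyruvate kinase, lactate dehydrogenase B, pyruvate dehydrogenase with its kinases and phosphatases, the citrate cycle enzymes, pyruvate carboxylase and the malic enzymes. The rule took 47 of the 6765 genes that had a symbol of their own on the array, and used no measured value other than the choice of the probe set of highest mean signal for each gene. The 47 genes had 61 probe sets in all, and 9 of them had more than 1. PGAM5, a mitochondrial protein phosphatase, and PKMYT1, a kinase of the cell cycle, were taken because their symbols begin like those of phosphoglycerate mutase and pyruvate kinase, and they are not glycolytic enzymes. Other genes of these steps, among them HK2, ALDOA, PGAM1, PDK1, PDK2 and PDHX, were not analysed here.

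Glycolysis splits glucose to pyruvate in the cytosol with a small yield of ATP, and it can run without oxygen when lactate dehydrogenase turns pyruvate into lactate. With oxygen, pyruvate enters the mitochondrion, where the pyruvate dehydrogenase complex makes acetyl-CoA from it and the citrate cycle oxidises that to carbon dioxide, handing electrons to the respiratory chain. The working heart draws most of its ATP from mitochondrial oxidation, largely of fatty acids, and leans on glycolysis when flow falls. Several steps have isoforms: PFKM, PGAM2 and ENO3 are the forms typical of muscle, while PFKP and ENO1 are found in many cell types.

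All animals were female pigs, with 5 hearts in each of 4 groups. In RCS (repeated coronary stenosis) low-flow ischemia of 90 min was repeated 6 times, 12 h apart. In RCO (repeated coronary occlusion) a session of 2 occlusions of 10 min was repeated 6 times, 12 h apart. In SWOP (second window of preconditioning) that session was given once, with 24 h of reperfusion before sampling, and control hearts were sham-operated. How long after the last episode RCS and RCO hearts were sampled, and from which region, is not stated in the labels. Total RNA was measured on a 1-colour Affymetrix porcine array, and every value below is a log2 signal, or a difference of log2 signals, as a brightness of the probe set and not a number of molecules.

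The 20 arrays were on a common scale, with median log2 signals between 6.75 and 6.82. The spread of signals was not the same in all groups: the interquartile range was 3.27 to 3.44 in RCS, 3.05 to 3.32 in RCO, 3.26 to 3.30 in SWOP and 3.04 to 3.16 in control. No pair of arrays was identical. The number of hearts limits the precision: the standard error of a difference between groups of 5 had a median of 0.121 over the members. The heart label was borne out by its markers, since the mean log2 signal of 13 measured heart muscle genes was 13.47 to 13.87 in RCS, 13.66 to 13.91 in RCO, 13.85 to 14.02 in SWOP and 13.84 to 14.02 in control.

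RCS hearts had lower signals for most enzymes of pyruvate oxidation and the citrate cycle than control hearts, together with higher ENO1, HK3, IDH1 and PFKP. Of the 47 members, 23 fell (48.9%), 4 rose (8.51%) and 20 did not pass, at a Benjamini-Hochberg adjusted p below 0.05 from limma over 23999 probe sets. The same call was common across the array, at 25.7% of the 6765 genes lower and 28.8% higher, so that the share of members lower stood above the background and the share higher stood below it. The median difference was -0.35 over the members, against -0.004 over all genes. The ranges of the 5 RCS and 5 control arrays did not overlap for 22 members (46.8%), 3 higher and 19 lower, against 40.2% of all genes. Among the members that fell, signals in RCS lay between 53.4% of the control mean for ME3 and 83.7% for IDH3B.

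RCO and SWOP moved few members. In RCO, HK3 and ENO1 rose and MDH2 fell, which is 4.26% of the members higher against 11.3% of all genes, and 2.13% lower against 4.26%. The median difference of the members in RCO was -0.16, against 0.014 over all genes, and 18 members (38.3%) had an unadjusted limma p below 0.05, against 34.9% of all genes. MDH2, the only member that fell in RCO, was lost in 17 of 28 alternative settings, among them median centring and leaving out any single control heart. The RCO and control ranges were apart for 3 members (6.38%), CS, SUCLG1 and LDHB, all lower in RCO and none of them past the adjusted threshold, against 8.51% of all genes. In SWOP, IDH1, TPI1, PFKP and PGAM5 rose (8.51% of the members, against 4.66% of all genes) and none fell (against 3.50% of all genes), with 9 members in either direction (19.1%, against 28.4% of all genes) at an unadjusted p below 0.05. The SWOP and control ranges were apart for 5 members (10.6%), 4 higher and 1 lower, against 15.1% of all genes; they were PFKP, TPI1, PGAM5 and PGK1 above control and OGDHL below. The median difference in SWOP was 0.090 over the members and 0.044 over all genes. The 781 genes with a mean signal at or above the members' median had a SWOP median of 0.118, with 54 higher and 7 lower. The members' median thus did not stand above that of these bright genes.

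**Figure D1:**
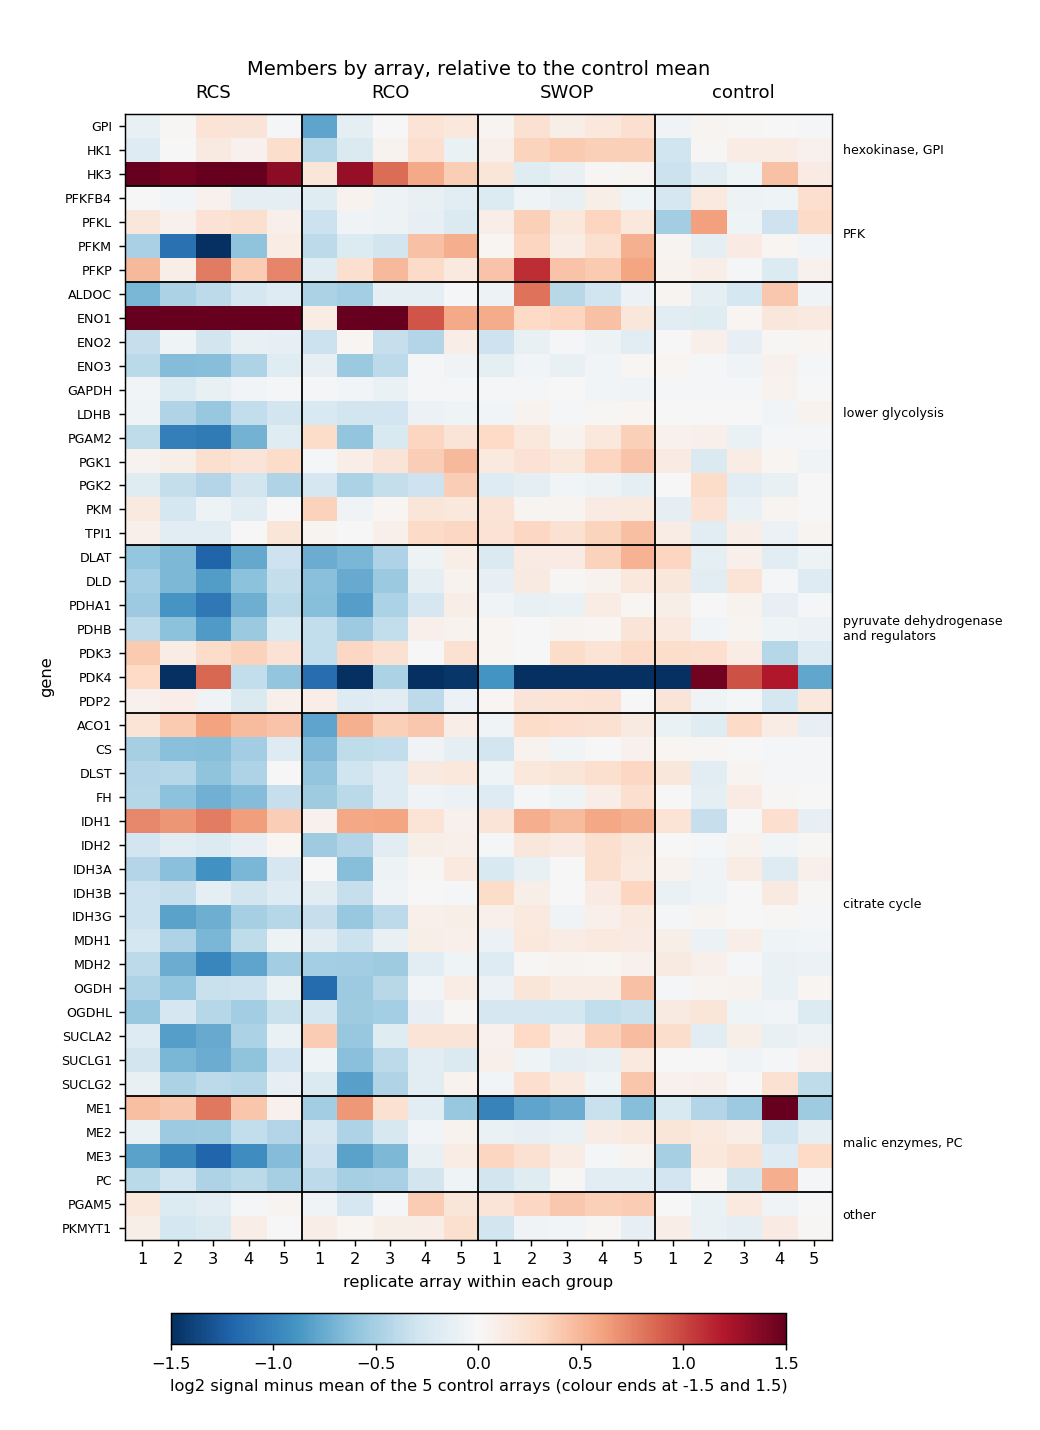
Heat map of the 47 members (rows, grouped by role) on the 20 arrays (columns, by group and replicate), as log2 signal minus the mean of the 5 control arrays; red is above and blue below the control mean, and the colour scale ends at -1.5 and 1.5. Most pyruvate dehydrogenase and citrate cycle rows are blue on all 5 RCS arrays and on RCO arrays 1 to 3, and pale on RCO arrays 4 and 5, SWOP and control.

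**Figure D2:**
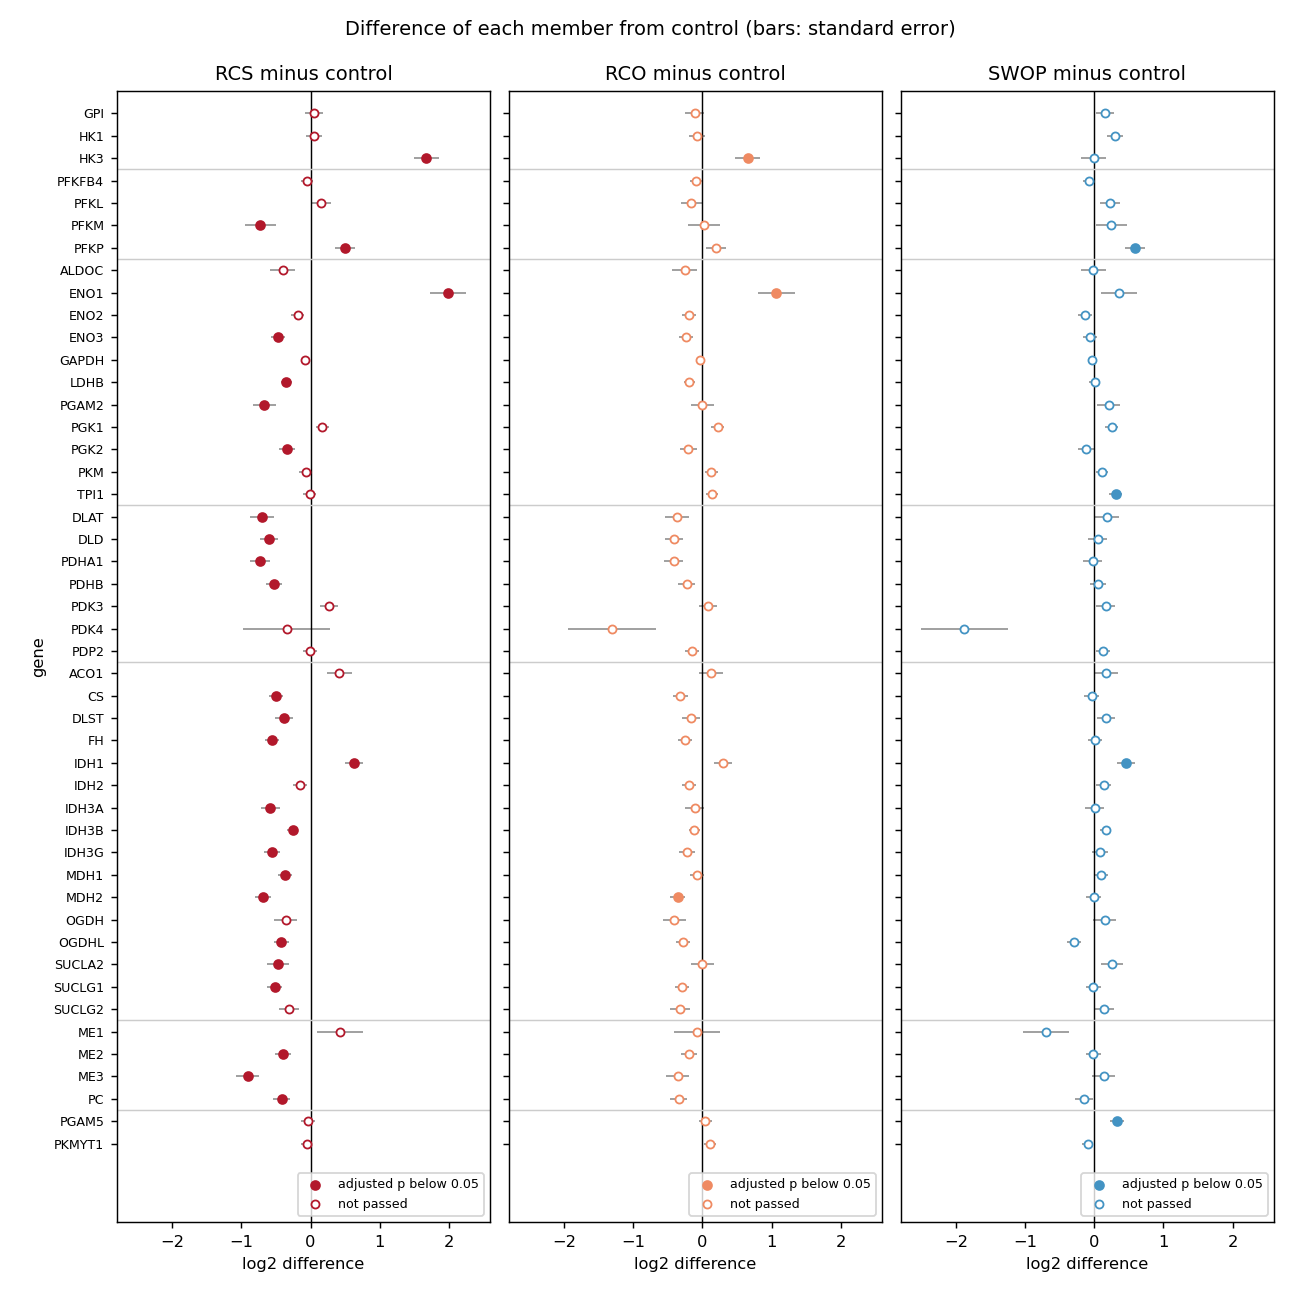
Difference of each member from control on the log2 scale in RCS, RCO and SWOP, with 1 standard error from the limma fit, n = 5 hearts a group. Filled points passed an adjusted p below 0.05: 27 in RCS, 3 in RCO and 4 in SWOP.

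The pyruvate dehydrogenase complex was lower in RCS in all 4 of its measured subunits, against 25.7% of all genes. PDHA1, the alpha subunit of the decarboxylase and the site of its control by phosphorylation, had log2 signals of 11.40, 11.06, 10.88, 11.22 and 11.54 in RCS, of 11.31, 11.12, 11.48, 11.70 and 12.05 in RCO, of 11.90, 11.84, 11.85, 12.06 and 11.98 in SWOP, and of 12.04, 11.96, 12.00, 11.83 and 11.92 in control. Every RCS heart lay below every control heart, the RCO hearts spanned from within the RCS range to just above the highest control heart, and the SWOP hearts overlapped control. The RCS difference was -0.73 ± 0.14 (SE, adjusted p = 0.00037), a signal 60.3% of control. The RCO difference was -0.42 ± 0.14 (adjusted p = 0.0574), and the SWOP difference was -0.02 ± 0.14 (adjusted p = 0.931).

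The other subunits were also lowest in RCS. PDHB, the beta subunit of the decarboxylase, averaged 11.90 ± 0.234 in RCS, 12.21 ± 0.278 in RCO, 12.49 ± 0.078 in SWOP and 12.43 ± 0.096 in control (SD, n = 5 each), and the RCS difference was -0.53 ± 0.12 (SE, adjusted p = 0.00136). DLAT, the acetyltransferase core, had 10.03, 9.94, 9.41, 9.85 and 10.30 in RCS against 10.93, 10.47, 10.69, 10.44 and 10.53 in control, a difference of -0.71 ± 0.18 (adjusted p = 0.00309). DLD, the dihydrolipoamide dehydrogenase that the 2-oxoglutarate dehydrogenase complex also uses, had 11.35, 11.19, 11.02, 11.25 and 11.51 in RCS against 12.03, 11.70, 12.07, 11.84 and 11.67 in control, a difference of -0.60 ± 0.13 (adjusted p = 0.00138). For all 4 subunits the RCS and control ranges were apart, against 40.2% of all genes in either direction. In RCO the 4 differences ran from -0.42 to -0.23 and none passed; PDHA1, DLAT and DLD had an unadjusted limma p below 0.05. In SWOP they ran from -0.02 to 0.18 and none passed limma's adjusted threshold or an unadjusted p below 0.05.

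The regulators of the complex did not pass limma's adjusted threshold in any of the 6 comparisons, with unadjusted p below 0.05 for PDK4 in SWOP against control (0.00757) and RCS against SWOP (0.025) and for PDP2 in RCO against SWOP (0.0109). PDK4, a kinase that switches the complex off and responds to fasting and fatty acids, had 10.37, 8.16, 10.93, 9.70 and 9.48 in RCS, 8.93, 8.19, 9.60, 8.49 and 8.62 in RCO, 9.18, 8.22, 7.57, 8.03 and 7.97 in SWOP, and 7.26, 11.52, 11.03, 11.27 and 9.29 in control. The control hearts alone covered more than 4 log2 units, with replicate 1 below every other heart in the series and replicates 2 to 4 above all of them. PDK4 differences from control were -0.35 ± 0.63 in RCS (adjusted p = 0.673), -1.31 ± 0.63 in RCO (adjusted p = 0.188) and -1.88 ± 0.63 in SWOP (adjusted p = 0.0713), so that none passed, although the SWOP difference was about 3 times its standard error (unadjusted p = 0.00757). The other PDK4 probe set gave -0.45, -1.43 and -1.97 in the same order and also did not pass. PDK3, a related kinase, differed from control by 0.27 ± 0.13 in RCS (adjusted p = 0.106), and PDP2, a phosphatase that switches the complex back on, by -0.004 ± 0.10 (adjusted p = 0.977).

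Of the 16 citrate cycle members, 11 fell in RCS, IDH1 rose and 4 did not pass. The 13 of them that work in the mitochondrial matrix all had negative RCS differences, from -0.69 to -0.15 with a median of -0.47, and 10 passed. In RCO 12 of these 13 differences were below 0 with a median of -0.25 and 1 passed. CS, FH, MDH2, OGDH, OGDHL, SUCLG1 and SUCLG2 had an unadjusted limma p below 0.05 in RCO, as did 34.9% of all genes in either direction. In SWOP 4 of the 13 were below 0 with a median of 0.076 and none passed, with OGDHL alone at an unadjusted limma p below 0.05. Over all 6765 genes, 25.7% were lower and 28.8% higher in RCS, with 4.26% lower in RCO and 3.5% lower in SWOP. Differences were below 0 for 3408 genes in RCS, 3215 in RCO and 2882 in SWOP. All 3 comparisons with control used the same 5 control hearts.

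CS, citrate synthase, which opens the cycle by joining acetyl-CoA to oxaloacetate, had log2 signals of 12.87, 12.74, 12.73, 12.85 and 13.18 in RCS, of 12.71, 12.99, 13, 13.32 and 13.24 in RCO, of 13.10, 13.42, 13.33, 13.37 and 13.43 in SWOP, and of 13.40, 13.39, 13.37, 13.35 and 13.34 in control. The control hearts were tightly grouped, and all RCS and all RCO hearts lay below them. The RCS difference was -0.50 ± 0.10 (SE, adjusted p = 0.000873). In RCO it was -0.32 ± 0.10 (adjusted p = 0.0558) and in SWOP -0.04 ± 0.10 (adjusted p = 0.841). The other CS probe set gave -0.44 ± 0.14 in RCS (adjusted p = 0.0147).

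The 3 subunits of the NAD-dependent isocitrate dehydrogenase, a main control point of the cycle, all fell in RCS, against 25.7% of all genes. IDH3G, a regulatory subunit, had 10.56, 10.08, 10.15, 10.39 and 10.46 in RCS against 10.86, 10.93, 10.88, 10.90 and 10.87 in control, a difference of -0.56 ± 0.12 (adjusted p = 0.000703). IDH3A, the catalytic subunit, had 11.34, 11.15, 10.87, 11.09 and 11.53 in RCS against 11.83, 11.72, 11.89, 11.59 and 11.86 in control, a difference of -0.58 ± 0.14 (adjusted p = 0.00205). IDH3B was lower by a smaller step, -0.26 ± 0.08 (adjusted p = 0.013), with 9.32 to 9.51 in RCS against 9.56 to 9.79 in control. The ranges were apart for each of these 3 subunits, against 40.2% of all genes in either direction. The other IDH3A probe set also fell, by 0.39 ± 0.16 (adjusted p = 0.043).

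The NADP-dependent isocitrate dehydrogenases did not follow them. IDH2, the mitochondrial form, had 12.94, 13.06, 13.03, 13.11 and 13.26 in RCS against 13.22, 13.21, 13.28, 13.19 and 13.25 in control, and its difference of -0.15 ± 0.10 did not pass (adjusted p = 0.242). IDH1, the cytosolic form, had 9.06, 9.0, 9.11, 8.97 and 8.71 in RCS, 8.41, 8.92, 8.93, 8.54 and 8.40 in RCO, 8.53, 8.89, 8.81, 8.92 and 8.87 in SWOP, and 8.55, 8.0, 8.34, 8.59 and 8.22 in control. All RCS hearts lay above all control hearts, whereas SWOP replicate 1 and all RCO hearts but replicates 2 and 3 fell within the control range. IDH1 rose by 0.63 ± 0.13 in RCS (adjusted p = 0.000657) and by 0.46 ± 0.13 in SWOP (adjusted p = 0.0357), with 0.30 ± 0.13 in RCO (adjusted p = 0.137). ACO1, the cytosolic aconitase that doubles as an iron-sensing RNA-binding protein, had a difference of 0.42 ± 0.18 in RCS (adjusted p = 0.0571), and its other probe sets gave -0.13 and 0.28.

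At the 2-oxoglutarate and succinyl-CoA steps the RCS differences ran from -0.52 to -0.31. Some passed and others did not, and they were not tested against each other. DLST, the succinyltransferase core of the 2-oxoglutarate dehydrogenase complex, had 11.57, 11.58, 11.40, 11.54 and 12.01 in RCS against 12.17, 11.85, 12.04, 11.97 and 11.99 in control, a difference of -0.38 ± 0.13 (adjusted p = 0.0212), and RCS replicate 5 lay within the control range. OGDH, the decarboxylase of that complex, had a difference of -0.36 ± 0.17 that did not pass (adjusted p = 0.0804). OGDHL, a related protein with dim signals (4.75 to 5.06 in RCS against 5.11 to 5.49 in control), fell by 0.42 ± 0.10 (adjusted p = 0.00252). In succinyl-CoA synthetase, SUCLG1, the alpha subunit, had 12.17, 11.75, 11.70, 11.84 and 12.15 in RCS against 12.45, 12.45, 12.39, 12.41 and 12.50 in control and fell by 0.52 ± 0.11 (adjusted p = 0.000728). SUCLA2, the ADP-specific beta subunit, fell by 0.47 ± 0.16 (adjusted p = 0.0242), with 10.61 to 11.33 in RCS and 11.26 to 11.70 in control. SUCLG2, the GDP-specific beta subunit, had a difference of -0.31 ± 0.14 (adjusted p = 0.0858). The DLST call was lost without RCS replicate 3 or control replicate 1 (highest adjusted p = 0.0636), and the SUCLA2 call without RCS replicate 2 or 3 or control replicate 1 (highest adjusted p = 0.0727).

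The closing steps of the cycle fell in RCS. FH, fumarate hydratase, had 11.27, 11.08, 10.98, 11.05 and 11.36 in RCS, 11.17, 11.30, 11.51, 11.65 and 11.61 in RCO, 11.51, 11.67, 11.63, 11.80 and 11.94 in SWOP, and 11.70, 11.56, 11.82, 11.72 and 11.70 in control. Its RCS difference was -0.55 ± 0.10 (adjusted p = 0.000302), and the RCS and control ranges were apart. MDH2, the mitochondrial malate dehydrogenase that regenerates oxaloacetate, had 12.79, 12.44, 12.21, 12.40 and 12.66 in RCS, 12.68, 12.66, 12.65, 13.03 and 13.12 in RCO, 12.99, 13.20, 13.23, 13.22 and 13.25 in SWOP, and 13.32, 13.26, 13.16, 13.09 and 13.10 in control. It fell by 0.69 ± 0.11 in RCS (adjusted p = 8.2e-05) and by 0.36 ± 0.11 in RCO (adjusted p = 0.0435), where replicates 1 to 3 lay below control, replicate 4 just below it and replicate 5 within it, and where the call was lost when any single control heart was left out (highest adjusted p over the alternatives 0.28). MDH1, the cytosolic malate dehydrogenase of the malate-aspartate shuttle, fell by 0.38 ± 0.10 in RCS (adjusted p = 0.00533), with 13.08 to 13.69 in RCS and 13.68 to 13.87 in control.

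**Figure D3:**
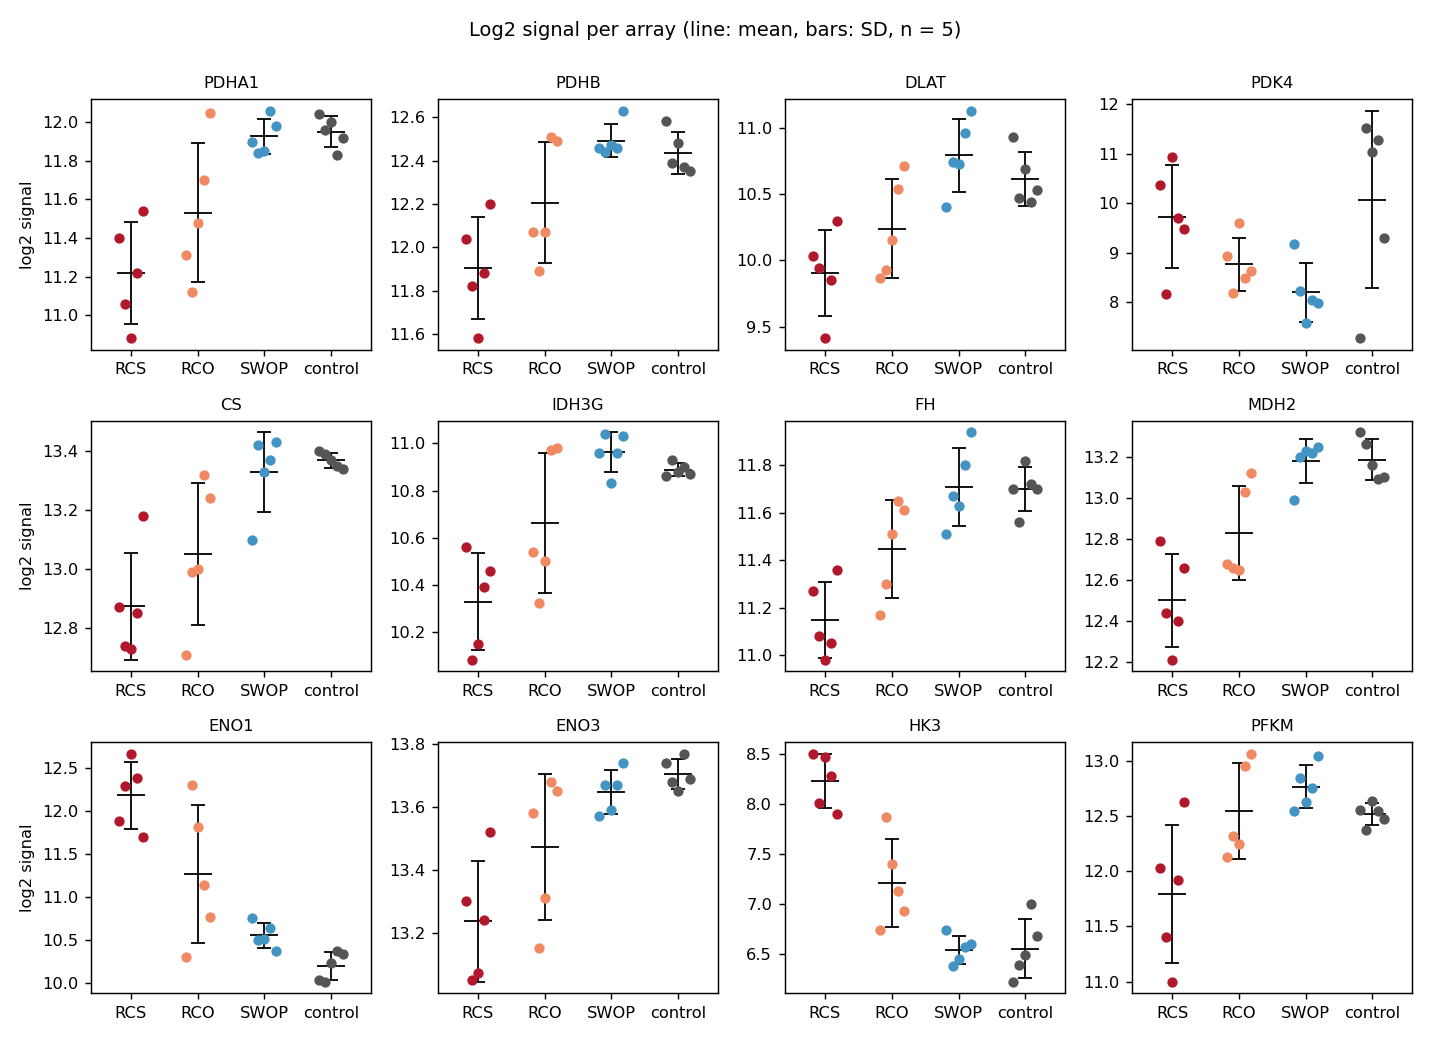
Log2 signal of 12 members on each array, with the group mean (line) and SD (bars), n = 5 hearts a group; y axes differ between panels and do not start at 0. For PDHA1, PDHB, DLAT, CS, IDH3G, FH, MDH2 and ENO3 every RCS point lies below every control point, for ENO1 and HK3 every RCS point lies above, and PDK4 scatters widest in control.

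Enzymes that feed or drain the cycle's intermediates also fell in RCS, 3 of 4, against 25.7% of all genes. ME3, the mitochondrial NADP-dependent malic enzyme, had 8.41, 8.25, 8.03, 8.29 and 8.57 in RCS, 8.91, 8.41, 8.54, 9.10 and 9.33 in RCO, 9.54, 9.44, 9.33, 9.19 and 9.26 in SWOP, and 8.72, 9.38, 9.44, 9.02 and 9.52 in control. It fell by 0.91 ± 0.17 in RCS (adjusted p = 0.000275), the largest fall among the 23. PC, pyruvate carboxylase, which makes oxaloacetate from pyruvate, had 6.66 to 6.86 in RCS against 6.87 to 7.71 in control and fell by 0.41 ± 0.12 (adjusted p = 0.0104). ME2, the mitochondrial NAD-dependent malic enzyme, had 9.24 to 9.68 in RCS against 9.49 to 9.97 in control and fell by 0.40 ± 0.11 (adjusted p = 0.00755). ME1, the cytosolic malic enzyme, had 6.99, 6.79, 6.68, 8.97 and 6.69 in control, where replicate 4 stood far above the rest, and its difference of 0.43 ± 0.33 in RCS did not pass (adjusted p = 0.299). Without that heart the ME1 difference was 0.86 ± 0.20 (adjusted p = 0.00264), with 7.29 to 8.02 in RCS against 6.68 to 6.99 in the other control hearts. ME1 was read this way after its values were seen. The other ME1 probe set, dim at a mean log2 signal of 4.06, gave 0.14 ± 0.17 in RCS with all hearts kept (limma, adjusted p = 0.503). The highest control value of PC, 7.71, also came from control replicate 4. The PC call held in all 28 alternative settings, with differences from -0.486 to -0.276.

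Glycolysis proper did not move as a block in RCS. Of its 18 members, 5 fell, 3 rose and 10 did not pass, which is 27.8% lower and 16.7% higher against 25.7% and 28.8% of all genes, and the median difference was -0.06. The share that fell was thus close to that of all genes. The 3 forms typical of muscle, PFKM, PGAM2 and ENO3, were all among those that fell. ENO1 and PFKP, isoforms found in many cell types, were among those that rose. Both groupings were made after the values were seen. PFKL, HK1, GPI, PGK1 and TPI1 did not pass in RCS, with differences of 0.16, 0.06, 0.06, 0.17 and -0.01.

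At the first steps, HK3, a hexokinase that in human and mouse is found mainly in myeloid blood cells, had 8.50, 8.01, 8.47, 8.28 and 7.90 in RCS, 6.74, 7.87, 7.40, 7.13 and 6.93 in RCO, 6.74, 6.38, 6.45, 6.57 and 6.60 in SWOP, and 6.23, 6.39, 6.49, 7.0 and 6.68 in control. The RCS hearts lay above all others in the series, the RCO hearts overlapped both SWOP and control, and SWOP matched the control range. HK3 rose by 1.67 ± 0.18 in RCS (adjusted p = 1.97e-06), a signal 3.19 times control, and by 0.66 ± 0.18 in RCO (adjusted p = 0.0242). A dimmer HK3 probe set rose by 0.61 in RCS (adjusted p = 3.31e-05) and the dimmest gave 0.11 (adjusted p = 0.494). HK1, the hexokinase bound to the mitochondrial surface in heart and brain, and GPI, phosphoglucose isomerase, each had a difference of 0.06 in RCS and did not pass.

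Phosphofructokinase commits sugar to glycolysis. PFKM, its muscle form, had 12.03, 11.40, 11, 11.92 and 12.63 in RCS, 12.13, 12.32, 12.25, 12.96 and 13.07 in RCO, 12.55, 12.85, 12.63, 12.76 and 13.05 in SWOP, and 12.56, 12.38, 12.64, 12.55 and 12.48 in control. It fell by 0.73 ± 0.23 in RCS (adjusted p = 0.0139), but RCS replicate 5 lay within the control range and the call was lost without RCS replicate 3 (adjusted p = 0.051). PFKP, the platelet form, had 8.37, 7.98, 8.66, 8.26 and 8.61 in RCS, 7.70, 8.12, 8.37, 8.17 and 8.03 in RCO, 8.31, 8.99, 8.31, 8.27 and 8.47 in SWOP, and 7.93, 7.98, 7.87, 7.68 and 7.95 in control. It rose by 0.49 ± 0.15 in RCS (adjusted p = 0.00981) and by 0.59 ± 0.15 in SWOP (adjusted p = 0.0241), where all 5 hearts lay above all controls. PFKL, the liver form, had a difference of 0.16 in RCS and did not pass. PFKFB4, which makes and breaks down an activator of phosphofructokinase, had a difference of -0.05 and did not pass.

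In lower glycolysis ENO1 and ENO3, isoforms of the enolase step, went opposite ways. ENO1, the form of most tissues, had 11.89, 12.29, 12.67, 12.39 and 11.70 in RCS, 10.31, 12.31, 11.82, 11.14 and 10.77 in RCO, 10.76, 10.50, 10.52, 10.64 and 10.37 in SWOP, and 10.04, 10.02, 10.23, 10.37 and 10.34 in control. It rose by 1.99 ± 0.26 in RCS (adjusted p = 1.3e-05), a signal 3.97 times control and the largest change of any member, and by 1.07 ± 0.26 in RCO (adjusted p = 0.0144). In RCO the hearts were far apart: replicates 2 and 3 reached the RCS range while replicate 1 lay within the control range. ENO3, the muscle form, had 13.30, 13.05, 13.07, 13.24 and 13.52 in RCS against 13.74, 13.68, 13.65, 13.77 and 13.69 in control and fell by 0.47 ± 0.10 in RCS (adjusted p = 0.000941), and its RCO difference was -0.23 ± 0.10 (adjusted p = 0.139). The log2 gap ENO1 minus ENO3 within an array was -1.05 ± 0.563 in RCS and -2.20 ± 1.01 in RCO. It was -3.09 ± 0.204 in SWOP and -3.51 ± 0.161 in control (SD, n = 5 each). The gap PFKP minus PFKM was -3.42 ± 0.641 in RCS and -4.47 ± 0.461 in RCO. It was -4.30 ± 0.279 in SWOP and -4.64 ± 0.187 in control. The size of such a gap depends on both probe sets, and only its change between groups can be read. Both gaps were chosen after their values were seen and were not tested. ENO2, the neuronal form, had dim signals and a difference of -0.19 in RCS that did not pass.

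PGAM2, the muscle phosphoglycerate mutase, had 11.45, 10.80, 10.77, 11.12 and 11.65 in RCS, 12.10, 11.24, 11.60, 12.15 and 12.02 in RCO, 12.13, 11.98, 11.88, 11.99 and 12.18 in SWOP, and 11.89, 11.90, 11.73, 11.80 and 11.81 in control. It fell by 0.67 ± 0.17 in RCS (adjusted p = 0.00326), with every RCS heart below every control heart. TPI1, triose phosphate isomerase, which joins the split sugar into a single stream, had 12.41, 12.50, 12.42, 12.53 and 12.65 in SWOP against 12.31, 12.02, 12.29, 12.11 and 12.24 in control. It rose by 0.31 ± 0.09 in SWOP (adjusted p = 0.0408), with no overlap between the groups, and its RCS difference was -0.01 ± 0.09. PGK1, phosphoglycerate kinase, one of the ATP-forming steps, had a SWOP difference of 0.25 ± 0.10 that did not pass (adjusted p = 0.0994), although the ranges were apart. PGK2, the testis form in human and mouse, had dim signals of 4.49 to 4.76 in RCS against 4.78 to 5.22 in control and fell by 0.34 ± 0.12 (adjusted p = 0.0255); this call was lost under quantile normalization and without RCS replicate 3 or 5 or control replicate 2 (highest adjusted p = 0.141).

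GAPDH, glyceraldehyde 3-phosphate dehydrogenase, had 14.58, 14.42, 14.51, 14.58 and 14.59 in RCS against 14.60, 14.61, 14.60, 14.67 and 14.63 in control. Its difference of -0.09 ± 0.05 did not pass (adjusted p = 0.189). The GAPDH probe sets disagreed: the next brightest fell by 0.21 in RCS (adjusted p = 0.00981), a pair of dimmer ones fell by 0.46 and 0.50, and another had a difference of 0.20 in RCS that did not pass and rose by 0.50 in SWOP (adjusted p = 0.0269). PKM, pyruvate kinase, and ALDOC, an aldolase, differed from control by -0.07 ± 0.09 and -0.40 ± 0.18 in RCS and did not pass.

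LDHB, the lactate dehydrogenase subunit that predominates in heart, had 14.09, 13.71, 13.59, 13.79 and 13.88 in RCS, 13.93, 13.88, 13.87, 14.07 and 14.10 in RCO, 14.12, 14.21, 14.13, 14.18 and 14.19 in SWOP, and 14.15, 14.15, 14.17, 14.12 and 14.21 in control. It fell by 0.35 ± 0.08 in RCS (adjusted p = 0.00151), and its RCO difference of -0.19 ± 0.08 did not pass (adjusted p = 0.124) although every RCO heart lay below every control heart. LDHA, the partner subunit that predominates in skeletal muscle and is not a member, had signals of 12.50 to 12.98 in RCS, 11.54 to 12.36 in RCO, 11.25 to 11.63 in SWOP and 10.07 to 10.90 in control. The log2 gap LDHA minus LDHB within an array was -1.59, -1.07, -0.61, -1.05 and -1.36 in RCS, -1.84, -1.52, -1.51, -2.29 and -2.56 in RCO, -2.62, -2.61, -2.88, -2.55 and -2.70 in SWOP, and -3.44, -4.08, -3.27, -3.67 and -3.83 in control. The gap was therefore narrower than in any control heart in every RCS, RCO and SWOP heart. Against control it differed by 2.52 in RCS, 1.71 in RCO and 0.99 in SWOP, each with a two-sided exact permutation p of 0.00794, the smallest that 5 against 5 hearts can give, and 0.00794 after adjustment over the 3 comparisons. LDHA itself rose by 2.17, 1.52 and 0.99 in RCS, RCO and SWOP (limma, adjusted p = 1.87e-07, 4.31e-05 and 0.00646).

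In all, 29 members passed against control in at least 1 protocol and 18 in none. The 18 were ACO1, ALDOC, ENO2, GAPDH, GPI, HK1, IDH2, ME1, OGDH, PDK3, PDK4, PDP2, PFKFB4, PFKL, PGK1, PKM, PKMYT1 and SUCLG2, of which HK1, IDH2, ME1, OGDH and SUCLG2 passed in a comparison between protocols. PGAM5, the phosphatase taken by its symbol, had 10.44, 10.55, 10.65, 10.60 and 10.63 in SWOP against 10.25, 10.15, 10.39, 10.19 and 10.24 in control and rose by 0.33 ± 0.10 (adjusted p = 0.048). PGAM5 was thus 1 of the 4 SWOP calls, and neither it nor PKMYT1 was among the RCS or RCO calls against control. The RCO calls were lost in the fit of the RCO and control arrays alone and without RCO replicates 2 and 3 together, where 0 members passed; leaving out RCO replicate 1, 2, 3, 4 or 5 gave 5, 1, 1, 5 or 12 calls, and leaving out control replicate 2 gave 1. The SWOP calls fell to 0 without SWOP replicate 2 or 5, to 1 without SWOP replicate 3 or 4 or control replicate 2, 4 or 5 and under quantile normalization, and to 2 without RCS replicate 4.

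The hearts of a group differed from each other in how many members lay low. Taking the 23 members that fell in RCS, the 5 RCS hearts lay below every control heart for 22, 23, 23, 23 and 19 of them in order of replicate number, the RCO hearts for 18, 23, 20, 6 and 3, and the SWOP hearts for 8, 2, 5, 2 and 1. Over all genes the shares below every control heart were 29.0% to 36.7% in RCS, 26.7%, 35.6%, 28.3%, 18.9% and 17.5% in RCO by replicate, and 18.1% to 21.8% in SWOP. The 23 were chosen for lying low against these same control hearts, so that the counts in all 3 groups depend on that choice. The RCO hearts split: replicates 1 to 3 had medians over the 23 of -0.31, -0.53 and -0.36 relative to the control mean, while replicates 4 and 5 had -0.05 and 0.056. Among these 23, RCS replicate 3 was the lowest RCS heart for 15 of the 23 and replicate 5 the highest for 14, and RCO replicate 2 was the lowest RCO heart for 16 and replicate 5 the highest for 14. The spread among hearts was widest in RCO: the median SD over the 47 members was 0.182 in RCS, 0.259 in RCO, 0.122 in SWOP and 0.125 in control, and 29 members had their largest SD in RCO.

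The 3 protocols were also compared with each other. RCS against SWOP gave 25 members lower (53.2%, against 17.7% of all genes) and 3 higher (6.38%, against 20.3%), with a median of -0.35. Bright genes fell more often than all genes here. Of the 781 genes with a mean signal at or above the members' median, 260 were lower and 202 higher, with a median of -0.05. ME1 rose in RCS relative to SWOP by 1.13 ± 0.33 (adjusted p = 0.0147), with 7.68, 7.63, 8.02, 7.64 and 7.29 in RCS against 6.22, 6.43, 6.48, 6.89 and 6.59 in SWOP and no overlap. HK3 and ENO1 rose by 1.68 ± 0.18 (adjusted p = 5.8e-06) and 1.63 ± 0.26 (adjusted p = 0.000164). Among the falls, the largest were ME3 at -1.04 ± 0.17 (adjusted p = 0.000147), PFKM at -0.97 ± 0.23 (adjusted p = 0.00322), DLAT at -0.89 ± 0.18 (adjusted p = 0.000879), PGAM2 at -0.87 ± 0.17 (adjusted p = 0.00067) and SUCLA2 at -0.72 ± 0.16 (adjusted p = 0.00246). The remaining pyruvate dehydrogenase subunits PDHA1, DLD and PDHB differed by -0.71, -0.65 and -0.59. In the cycle the differences were -0.68 for MDH2, -0.64 for IDH3G, -0.59 for IDH3A, -0.56 for FH, -0.55 for DLST, -0.50 for SUCLG1, -0.47 for MDH1, -0.46 for CS and -0.42 for IDH3B. Outside it they were -0.41 for ENO3, -0.39 for ME2, -0.37 for PGAM5, -0.35 for LDHB and -0.32 for TPI1, and PC, OGDHL and PGK2, which fell against control, did not pass against SWOP. IDH2, OGDH and SUCLG2, which did not pass against control, fell by 0.28, 0.51 and 0.45 relative to SWOP, and each of these 3 calls was lost in some alternative settings (highest adjusted p = 0.103, 0.0766 and 0.0728).

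RCS against RCO, both repeated protocols, gave 8 members lower (17.0%, against 9.90% of all genes) and 2 higher (4.26%, against 11.7%), with a median of -0.14. Of the 781 genes with a mean signal at or above the members' median, 99 were lower and 111 higher, with a median of 0.018. HK3 rose by 1.02 ± 0.18 (adjusted p = 0.00197), with no overlap between the groups, and ENO1 by 0.92 ± 0.26 (adjusted p = 0.0227). PFKM fell by 0.75 ± 0.23 (adjusted p = 0.029), PGAM2 by 0.66 ± 0.17 (adjusted p = 0.0125), ME3 by 0.55 ± 0.17 (adjusted p = 0.0286) and IDH3A by 0.47 ± 0.14 (adjusted p = 0.0238). IDH3G, MDH2, FH and MDH1 differed by -0.33, -0.33, -0.30 and -0.29, with adjusted p between 0.044 and 0.0492. HK3 was the only 1 of the 10 that passed in all 28 alternative settings. The count was 1 in the fit of these 2 groups alone, 20 without RCO replicates 2 and 3, 17 without RCO replicate 2, 5 without RCO replicate 1, 2 to 4 without RCO replicate 4 or 5 or RCS replicate 2, 3 or 4, and 6 when arrays were centred on their medians or without SWOP replicate 2, 3 or 4 or control replicate 3 or 5.

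RCO against SWOP compared the same session repeated 6 times or given once. It gave 6 members lower (12.8%, against 6.40% of all genes) and 1 higher (2.13%, against 5.54%), with a median of -0.22. Of the 781 genes with a mean signal at or above the members' median, 72 were lower and 35 higher, with a median of -0.044. HK3 rose by 0.67 ± 0.18 (adjusted p = 0.0252). OGDH fell by 0.56 ± 0.17 (adjusted p = 0.0398), SUCLG2 by 0.46 ± 0.14 (adjusted p = 0.0476), DLD by 0.46 ± 0.13 (adjusted p = 0.036), HK1 by 0.39 ± 0.12 (adjusted p = 0.0398), MDH2 by 0.35 ± 0.11 (adjusted p = 0.0493) and IDH3B by 0.28 ± 0.08 (adjusted p = 0.0305). IDH3B had 9.50, 9.31, 9.61, 9.65 and 9.63 in RCO against 9.94, 9.75, 9.67, 9.78 and 9.98 in SWOP, the only 1 of these 7 members whose ranges were apart. None of the 7 calls held in every alternative: 0 members passed without RCO replicate 2, without RCO replicates 2 and 3 together or without SWOP replicate 2 or 5, 1 passed without RCO replicate 3 or SWOP replicate 3 or 4, 4 passed under quantile normalization, and 12 and 11 passed without RCO replicates 4 and 5 in turn. In the fit of these 2 groups alone none of the 7 passed and PFKL did, at -0.38 (adjusted p = 0.04).

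Markers of cell types moved in the same hearts. As background for their counts, 28.8% of all genes were higher and 25.7% lower in RCS. These shares were 11.3% and 4.26% in RCO, and 4.66% and 3.5% in SWOP. In whole heart tissue, fewer cells of a type and less RNA per cell cannot be told apart. Of 13 heart muscle genes, 10 fell in RCS and NPPA, the atrial natriuretic peptide, rose, with a median of -0.41, against -0.35 for the members; in RCO 2 fell (median -0.19) and in SWOP none passed (limma, median -0.04, none at an unadjusted p below 0.05). Of 11 macrophage and monocyte genes, 8 rose in RCS (median 2.01) and 5 in RCO (median 1.05), and none passed in SWOP (limma, median 0.284, none at an unadjusted p below 0.05). Their mean log2 signal was 9.34 to 9.89 in RCS, 8.21 to 10.19 in RCO, 7.88 to 8.47 in SWOP and 7.79 to 8.39 in control, while the defining marker CD163 rose in RCS by 0.97 and C1QA and C1QC, other macrophage genes, did not pass. Of 7 fibroblast genes 4 rose in RCS, of 6 smooth muscle genes 4 rose and 2 fell, of 5 adipocyte genes 3 fell, of 7 skeletal muscle genes 4 fell and 1 rose, and of 8 endothelial genes none passed (limma, 1 at an unadjusted p below 0.05). CKM was in both the heart muscle and the skeletal muscle list, so their counts are not independent. In RCO 2 fibroblast genes, 1 smooth muscle gene and 1 skeletal muscle gene rose, and 2 adipocyte genes and 1 endothelial gene fell. In SWOP 2 smooth muscle genes and 1 skeletal muscle gene rose and 1 adipocyte gene fell. Neither of 2 red blood cell genes passed in any of the 3 (limma, with 1 in RCO and 0 in RCS and SWOP at an unadjusted p below 0.05). CD163, C1QA and C1QC were singled out after their values were seen. The part of these changes in the falls of the cycle enzymes and in the rises of HK3, ENO1 and PFKP was not tested.

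Heart by heart, the medians of the 16 citrate cycle members relative to control were -0.32, -0.53, -0.62, -0.47 and -0.16 in RCS and -0.31, -0.48, -0.19, 0.001 and 0.07 in RCO. Those of the heart muscle markers were -0.28, -0.44, -0.73, -0.42 and -0.24 in RCS and -0.28, -0.28, -0.29, -0.07 and -0.09 in RCO. Those of the macrophage markers were 2.05, 2.05, 2.26, 2.03 and 1.36 in RCS and 0.208, 2.16, 1.69, 0.506 and 0.308 in RCO. The RCS heart with the smallest falls, replicate 5, also had the smallest macrophage rise and the smallest fall of heart muscle markers. RCO replicate 1 had citrate cycle and heart muscle medians about as low as those of replicate 3 but a macrophage median near those of replicates 4 and 5.

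**Figure D4:**
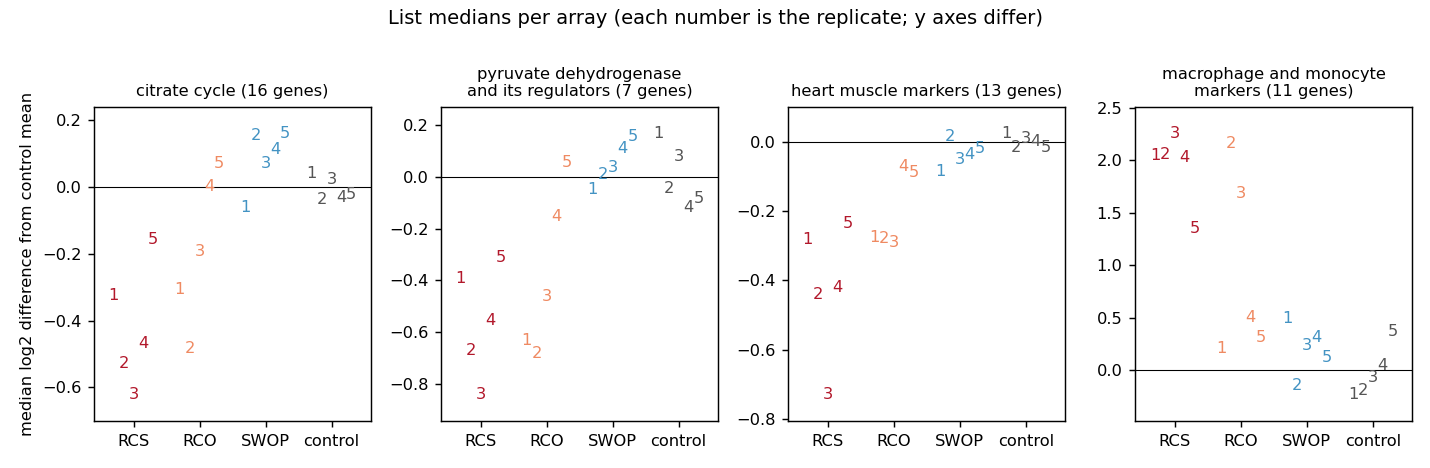
Median log2 difference from the control mean over the 16 citrate cycle members, the 7 members of pyruvate dehydrogenase and its regulators, 13 heart muscle markers and 11 macrophage and monocyte markers, for each array; each point is drawn as its replicate number, and y axes differ. RCO replicates 2 and 3 join the RCS hearts in all 4 panels, and RCO replicate 1 does so in the first 3 but not in the macrophage panel.

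Control probe sets of the array differed between the groups too. The mean log2 signal of the hybridisation spike-ins was 10.177 to 10.402 in RCS, 10.477 to 11.048 in RCO, 10.425 to 10.868 in SWOP and 10.534 to 10.602 in control, with RCO replicate 1 highest. The gap between the 3′ and 5′ actin probe sets was 0.51 to 0.73 in RCS, 0.78 to 1.69 in RCO, 1.22 to 1.70 in SWOP and 1.24 to 1.96 in control. The level of 5′ actin moved with it, at 13.01 to 13.50 in RCS, 11.28 to 13.15 in RCO, 11.35 to 11.57 in SWOP and 10.70 to 12.07 in control. That between the 3′ and 5′ GAPDH control probe sets was -0.06 to 0.19 in RCS, -0.23 to 0.08 in RCO, -0.17 to -0.01 in SWOP and -0.16 to -0.06 in control. The part of these differences in the members' changes was not tested.

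Genes linked to the pathway were read as lists, separate from the members. As background for their counts, 28.8% of all genes were higher and 25.7% lower in RCS. Succinate dehydrogenase, the citrate cycle enzyme that is also complex II, fell in RCS in 5 of 5 measured genes, its 4 subunits and the assembly factor SDHAF2, with SDHA at -0.71, SDHC at -0.69 and SDHB at -0.66; none of the 5 passed limma's adjusted threshold in RCO or SWOP, with 2 in RCO and 0 in SWOP at an unadjusted p below 0.05. In the malate-aspartate and glycerol phosphate shuttles, which bring reducing power into mitochondria, 5 of 8 genes fell in RCS, among them SLC25A12, the aspartate-glutamate carrier (-0.85 ± 0.14, adjusted p = 7.13e-05), GOT1 (-0.73) and GOT2 (-0.67), the cytosolic and mitochondrial aspartate aminotransferases, and SLC25A1, the citrate carrier, named after its values were seen, rose (0.27). GOT2 also fell in RCO by 0.44 (adjusted p = 0.0445), and SLC25A1 rose in SWOP by 0.36 (adjusted p = 0.0306).

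At the entry and exit of the pathway 2 of 6 transporters rose and 3 fell in RCS, against 28.8% and 25.7% of all genes. SLC16A3, a lactate exporter of glycolytic cells, had 6.27 to 7.50 in RCS, 5.71 to 6.74 in RCO, 5.02 to 6.03 in SWOP and 4.47 to 5.84 in control, and rose by 1.51 in RCS (adjusted p = 0.000174) and 0.89 in RCO (adjusted p = 0.0362). SLC2A4, the insulin-responsive glucose transporter of muscle and fat, had 7.73 to 8.65 in RCS, 8.08 to 8.94 in RCO, 8.63 to 9.26 in SWOP and 8.56 to 9.46 in control, and fell by 0.92 in RCS (adjusted p = 0.000763) and 0.67 in RCO (adjusted p = 0.0306). SLC2A1, the basal glucose transporter of most cells, rose by 0.70 in RCS (adjusted p = 0.00783). MPC1 and MPC2, which form the mitochondrial pyruvate carrier and are named here after their values were seen, fell by 0.37 and 0.40 in RCS (adjusted p = 0.0287 and 0.0338).

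The pentose phosphate pathway, which branches from glycolysis to make NADPH and ribose, had 4 of 5 measured genes higher in RCS and none lower. Over all genes the shares were 28.8% higher and 25.7% lower. TKT, transketolase, had 9.48 to 10.50 in RCS, 8.02 to 9.89 in RCO, 8.08 to 8.39 in SWOP and 7.76 to 8.61 in control and rose by 2.05 ± 0.27 in RCS (adjusted p = 1.03e-05) and by 0.94 in RCO (adjusted p = 0.0292). TALDO1, transaldolase, and PGD, which forms NADPH, rose by 1.13 and 1.01 in RCS. Genes of this list and of the macrophage list rose in the same groups, RCS and RCO. They were not compared heart by heart, and the part of the macrophage markers in the pentose phosphate genes was not tested.

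In glycogen metabolism 4 of 9 genes rose and 2 fell in RCS. Over all genes 28.8% were higher and 25.7% lower in RCS, the background for each list count in this paragraph. PGM2 and PGM1, both phosphoglucomutases, went opposite ways, at 1.25 ± 0.17 (adjusted p = 1.86e-05) and -0.74 ± 0.14 (adjusted p = 0.000255), and PYGL, the liver form of glycogen phosphorylase, rose by 0.85 (adjusted p = 0.000144). PGM2 also rose in RCO by 0.58 (adjusted p = 0.0385), and none of the 9 passed in SWOP, where 6 had an unadjusted limma p below 0.05. Of 10 other enzymes at the glycolytic and pyruvate nodes, 2 rose and 4 fell in RCS, with LDHD, the D-lactate dehydrogenase, at -0.96 (adjusted p = 1.03e-05) and GPT, the alanine aminotransferase that takes pyruvate to alanine, at -1.03 (adjusted p = 0.00019). Of 7 regulators, HIF1A, the oxygen-sensitive factor that switches on glycolytic genes, rose by 0.68 in RCS (adjusted p = 2.94e-05) and by 0.40 in RCO (adjusted p = 0.0136). PRKAG2 and PRKAA2, subunits of the AMP-activated kinase, had differences of 1.36 and -0.71 in RCS and both passed (adjusted p = 0.00201 and 0.000482).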

How the data were processed

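The deposited table held 1 log2 signal per probe set and heart for 24123 probe sets on 20 arrays (1-colour Affymetrix porcine array). The authors' processing named RMA and MAS5, per the submitters' processing notes, with no version and no role for either; base 2 was taken from the range of the values. Such summaries compress differences of very bright and very dim probe sets. No genome build is given in the sources used here. Gene symbols came from the platform annotation, with 10069 probe sets of 1 symbol, 198 of several and 13732 of none; all 47 member symbols are current in RefSeq.

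From there, 124 control spots were left out and limma 3.58.1 (R 4.3.3) was fitted to 23999 probe sets with 4 group means over all 20 arrays (16 residual degrees of freedom), with Benjamini-Hochberg adjustment over all of them and a threshold of 0.05. The step was tested on simulated data. Each gene was read from its probe set of highest mean. The gap LDHA minus LDHB was tested by exact permutation. Each array was mapped to its group by title; where nothing says hearts were processed separately, p-values cover the spread between these samples only. Members that passed against control are given by heart or range, members that passed between protocols by difference, and up to 3 passing genes of smallest p per linked list. The members and lists were chosen with earlier results of these data known. Alternatives were quantile normalization, median centring, a filter at the 30th percentile, an intensity trend, a replicate block, 2-group fits, means over probe sets and omission of arrays.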

Additional observations from a re-analysis of the deposited data

Results flagged for a closer look

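Of 188 sets of 5 hearts (47 members in 4 groups), 10 held a heart whose gap to the nearest of the others was large for the range of its group; chance alone gives about 1 in 20 such sets. SWOP replicate 1 was lowest in 4 of them. It had 8.53 for IDH1 (next 8.81), 13.68 for MDH1 (next 13.88), 12.99 for MDH2 (next 13.2) and 12.20 for HK1 (next 12.46). SWOP replicate 2 was highest for ALDOC at 8.67 (next 7.78) and for PFKP at 8.99 (next 8.47), and SWOP replicate 5 was highest for PDHB at 12.63 (next 12.47). In control, replicate 4 was highest for ME1 at 8.97 (next 6.99) and replicate 1 lowest for HK1 at 11.83 (next 12.14). RCO replicate 5 was highest for PGK2 at 5.31 (next 4.69), a dim probe set.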

How the results depend on the processing

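Each count of members that passed was recomputed in 28 alternative settings, 20 of which left out 1 array. No call changed direction. The RCS counts were stable: 23 to 31 members against control (27 as reported; 23 to 29 with 1 array left out) and 25 to 32 against SWOP (28 as reported; 25 to 29). Of the 27 calls of RCS against control 23 held in every setting that tested them, the exceptions being DLST, SUCLA2, PGK2 and PFKM, and of the 28 against SWOP 25 did. The other counts moved by more than 1.5 times. RCO against control (3) gave 6 without dim probe sets, 5 with the mean over probe sets, 0 with only these groups in the fit, 8 under quantile normalization (2 higher, 6 lower), 0 without RCO replicates 2 and 3, and 1 to 12 with 1 array left out. SWOP against control (4) gave 7 with only these groups in the fit (6 higher, 1 lower), 1 under quantile normalization and 0 to 5 with 1 array left out. RCO against SWOP (7) gave 1 with only these groups, 4 under quantile normalization, 0 without RCO replicates 2 and 3, and 0 to 12 with 1 array left out. RCS against RCO (10) gave 6 with arrays centred on their medians, 1 with only these groups, 20 without RCO replicates 2 and 3 (4 higher, 16 lower), and 2 to 17 with 1 array left out. The replicate block gave 6 members for RCO against control and moved no other count by more than 1.5 times, and it ended the MDH2 and SUCLG2 calls of RCO against SWOP. Same-numbered arrays correlated at -0.179 to 0.440, with 10 of 30 pairs over 0.1 (4 of 5 between RCO and RCS, 0 of 5 between RCS or SWOP and control); 10 of 20 arrays correlated best with their own number, a hint from the data and not from the design, and the numbers were not used as pairs. The LDHA minus LDHB differences stayed at 2.39 to 2.64 in RCS, 1.61 to 1.87 in RCO and 0.881 to 1.08 in SWOP with 1 array left out. The cause of the changes was not tested, beyond the fewer arrays some settings use. A typical member's difference had a standard error of 0.121, and a difference had to be well above its standard error to pass. PGK1 in SWOP, at 0.254 with a standard error of 0.0953, did not pass (limma, adjusted p = 0.0994). Smaller differences cannot be told from the spread between hearts. The probe sets of OGDHL and PGK2 lie below the 30th percentile of brightness.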
